A study of Mus musculus with 6 samples.

Results

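The genes described here encode the ion and bicarbonate transporters of the colonic lining. They are the anion exchangers (Slc26a), sodium-hydrogen exchangers (Slc9a), bicarbonate transporters (Slc4a), cation-chloride cotransporters (Slc12a), epithelial sodium channel subunits (Scnn1), subunits of the sodium pump (Atp1a, Atp1b) with the small FXYD proteins that bind it (Fxyd), the colonic proton-potassium pump Atp12a, and the potassium channel genes Kcnn4, Kcnq1 and Kcne3. Members were taken by gene symbol from probe sets with exactly 1 platform symbol, and the brightest probe set over all arrays stood for each gene. This gave 54 genes on 99 probe sets, of 18194 genes and 45101 probe sets in all. Of the 54 genes 30 lay above the filter on dim signals and were tested, out of 12437 genes tested. Slc4a1ap meets the naming rule although its product is an adaptor-type protein and not a transporter. Slc4a7 was not analysed here.

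Affymetrix 3' arrays were used to profile RNA of C57BL/6 mouse colonic mucosa. The labels mark 3 arrays as p38a knockout and 3 as wild type, lettered A, B and C in each group, and none was treated. Mapk14 encodes p38a, a kinase activated by stress and inflammatory signals, and intestinal epithelial cells stand in the labels as the cell type. The sources used here give neither the allele or promoter behind the deletion nor the animals' age and sex. The labels do not tie the arrays to separate animals, so p-values cover only the spread among these arrays, and that spread may be technical. The number of arrays limits the precision. In bulk RNA, fewer cells of a type and less RNA per cell cannot be told apart.

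The colon absorbs sodium and chloride mainly by a sodium-hydrogen exchanger and a chloride-bicarbonate exchanger working side by side in the apical membrane, and in its distal part also through the epithelial sodium channel. Crypt cells secrete chloride that is loaded across the basolateral membrane by a sodium-potassium-chloride cotransporter and leaves through the apical channel Cftr, while basolateral potassium channels keep up the driving force. The sodium pump powers both processes, and a proton-potassium pump in the apical membrane takes up potassium in the distal colon.

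Mapk14 read 9.72, 9.91 and 9.73 in the arrays labelled knockout and 9.31, 9.44 and 9.37 in wild type (log2 scale), a difference of 0.41 (SE 0.14, limma adjusted p = 0.902) that went against the label. Where the probe set lies relative to the deleted part was not analysed here, and the group is called by its label in what follows. The epithelial genes Epcam (13.17 to 13.33 over all arrays), Cdh1 (12.75 to 13.07) and Vil1 (11.92 to 12.39) were measured well above the filter in all 6 arrays. The trimmed mean signal was 117 to 188 in wild type and 192 to 222 in the arrays labelled knockout, and quantile normalization removed this. For the Gapdh control, signal at the 3' end over signal at the 5' end (higher where RNA is more degraded) was 1.10 in wild type A, 0.989 in wild type B and 1.45 in wild type C, against 0.859 to 0.954 in the arrays labelled knockout. Wild type C thus lay farthest from the rest on this ratio, and wild type A was nearer to B than to C. Array weights estimated from the agreement of the arrays ordered them otherwise, with 4.32 for wild type A, 0.473 for wild type B, 0.365 for wild type C and 0.887 to 1.53 in the other group. Wild type B alone is used below because its Gapdh value was the wild-type one nearest to the arrays labelled knockout, not because it was the more reliable array. Summed signals of the goblet cell markers (12 of 12 tested, all lower; 16.13 to 16.25 in the arrays labelled knockout against 16.40 to 16.59) were lower in every array labelled knockout than in every wild-type array. The same held for deep crypt secretory cells (7 of 7 tested, 4 lower; 13.56 to 13.76 against 14.29 to 14.66) and tuft cells (7 of 9 tested, all lower; 8.78 to 9.10 against 9.56 to 10.08). It held too for enteroendocrine cells (10 of 10 tested, 6 lower; 11.51 to 11.86 against 12.01 to 13.05) and endothelium (2 of 7 tested, both lower; 6.01 to 6.34 against 6.51 to 6.70). The sums overlapped for colonocytes (16 of 16 tested, 12 lower; 16.75 to 17.02 against 16.84 to 17.10), T cells (6 of 10, all lower, median -0.59; 8.38 to 9.37 against 8.53 to 10.51), B and plasma cells (5 of 8, 4 lower; 9.97 to 11.94 against 9.21 to 12.05) and macrophages (8 of 10, 4 lower; 10.44 to 10.94 against 10.52 to 10.69). They also overlapped for smooth muscle (6 of 8, 2 lower; 9.38 to 10.09 against 9.34 to 9.90), fibroblasts (6 of 7, 5 lower; 9.32 to 11.50 against 10.48 to 11.17), enteric neurons and glia (2 of 8, 1 lower; 6.10 to 6.64 against 6.18 to 6.56) and pancreas (3 of 11, 2 lower; 10.83 to 11.24 against 10.82 to 11.15). Markers of distal position along the colon (3 of 8 tested, 3 with positive and 0 with negative differences, median 0.39) gave overlapping sums of 9.96 to 11.12 against 10.05 to 10.65. None of the 7 red blood cell markers, Slc4a1 among them, was tested. A sum is led by its brightest markers. For the lists without overlap, the median difference was -0.32 (goblet), -0.26 (deep crypt secretory), -0.62 (tuft), -0.10 (enteroendocrine) and -0.36 (endothelium). Of the deep crypt secretory markers 3 were higher, and of the enteroendocrine markers 4. How often other gene lists give sums without overlap was not computed. The part of these cell types in the values below was not tested.

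No transporter gene differed between the genotype labels by the test used. Values are log2(signal + 16) after quantile normalization, and the added 16 understates the change of dim genes. A difference is the mean of the arrays labelled knockout minus the mean of wild type on this scale. limma called 0 of the 30 members at an adjusted p of 0.05 (0% of all genes tested), and their adjusted p-values ran from 0.902 to 0.998. Also 0 of 30 had an unadjusted p under 0.05, where the share over all genes was 3.94%. In 0 of 30 did the 3 arrays of one group lie apart from the 3 of the other, where the share over all genes was 9.06%. Of the 30 differences 20 were negative and 10 positive, with a median of -0.07 (0.02 over all genes) and a median size of 0.22 (0.18 over all genes). They ran from -0.92 for Fxyd4 to 0.66 for Slc12a2, and 0 reached 2-fold on this scale. With 1 added to the signal in place of 16, Slc12a4 stood at -1.02, beyond 2-fold, and Scnn1g at 0.92. With 16 added, the difference was in all 30 smaller than the range of the 3 arrays in one or the other group. The share of all genes for this was not computed, so it is not read as particular to the members. An absent call does not show that levels were alike. With 16 added, the 95% interval of the difference stayed within 2-fold for 21 members and reached beyond it for 9. For dim members the interval is wider in terms of signal.

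**Figure D1:**
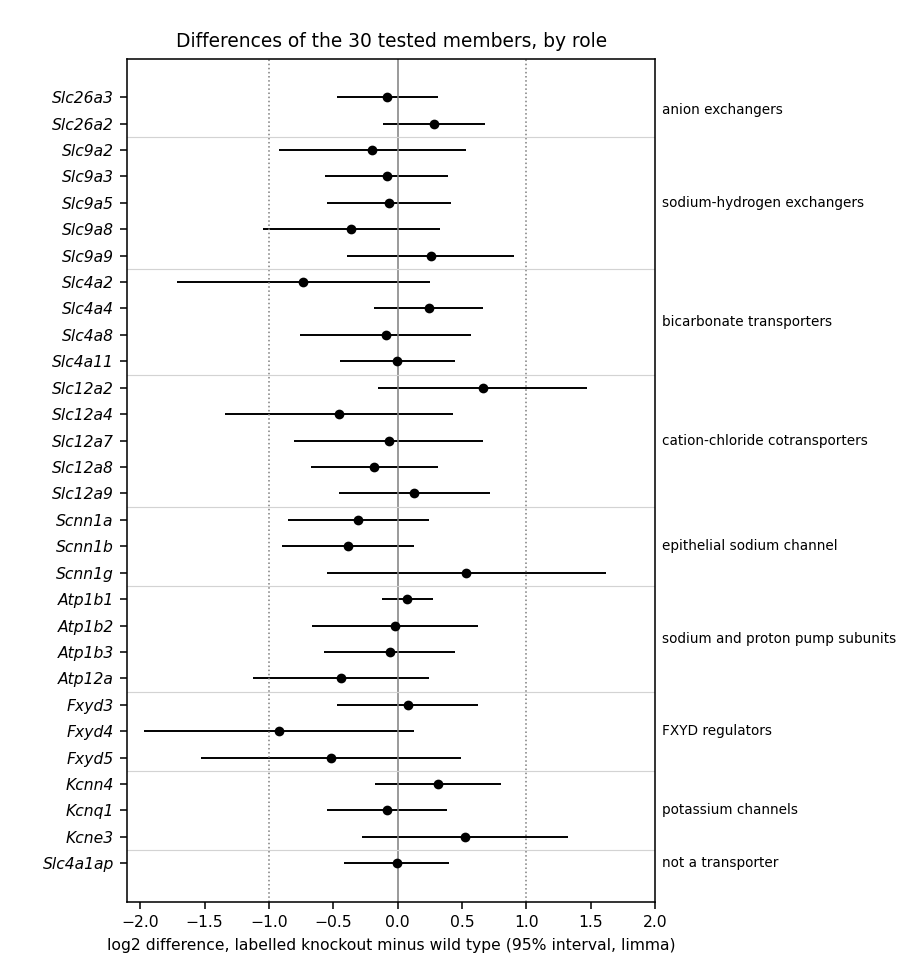
Log2 difference of each of the 30 tested members, arrays labelled knockout minus wild type (horizontal axis), with limma's 95% interval as the bar and the genes grouped by role. Dotted lines mark 2-fold. All 30 intervals cross 0, from Fxyd4 at -0.92 to Slc12a2 at 0.66.

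Slc26a3, the apical chloride-bicarbonate exchanger whose loss causes chloride-losing diarrhoea, read 12.88, 13.39 and 13.52 in the arrays labelled knockout and 13.43, 13.18 and 13.42 in wild type, each time in the order A, B, C used for all genes here. The array labelled knockout A was the lowest and C the highest, so that wild type lay inside the range of the other group. The difference was -0.08 (SE 0.17), with an interval of -0.47 to 0.31, whose farther end is 1.39-fold. Relative to the median of all genes it was -0.35 on the signals as deposited and with arrays centred on their medians, so its size depends on the scaling. Its 4 probe sets had 2 negative and 2 positive differences, from -0.08 to 0.09, and their mean was 0.015. The brightest carries a suffix that marks possible binding of related transcripts. Slc26a2, a sulfate transporter, read 11.86, 12.18 and 12.36 against 11.87, 11.61 and 12.07. Wild type B was the lowest array, and the difference was 0.28 (SE 0.17), or 0.53 against wild type B alone. Without the array labelled knockout A its groups no longer overlapped, and the same held with no scaling or with each array centred on its median. These values are from the brightest probe set of Slc26a2. Its 3 probe sets above the filter gave 2 positive differences and 1 negative, from -0.09 to 0.28, and their mean was 0.11.

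Of the sodium-hydrogen exchangers 5 of 7 were tested, with 4 differences negative and 1 positive. Slc9a3, the main apical exchanger of absorbing cells, read 12.04, 12.06 and 11.81 in the arrays labelled knockout and 12.40, 11.57 and 12.20 in wild type, a difference of -0.09 (SE 0.21). Both ends of its range were wild-type arrays. Slc9a2, a second apical exchanger, read 9.99, 10.19 and 10.66 against 10.67, 9.76 and 10.98. Again wild type B was the lowest and wild type C the highest, with a difference of -0.20 (SE 0.32). Against wild type B alone both signs turned, to 0.40 for Slc9a3 and 0.51 for Slc9a2. Slc9a8, found in apical and Golgi membranes, lay between 6.26 and 6.49 in 5 arrays and at 7.39 in wild type C. Its difference of -0.36 (SE 0.30) ran from -0.56 to -0.02 with 1 array left out, the latter without wild type C. The endosomal exchanger Slc9a9 was the reverse case, with 5 arrays between 5.71 and 5.87 and wild type C at 4.86 (difference 0.26, SE 0.28; -0.06 without that array and up to 0.44 without another). Slc9a5 stood at -0.07 (SE 0.21).

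Among the bicarbonate transporters 4 of 9 were tested. Slc4a2, a basolateral chloride-bicarbonate exchanger, had the largest spread in wild type of all members, with 8.51, 8.54 and 8.90 in the arrays labelled knockout and 9.06, 8.61 and 10.48 in wild type. Wild type C lay 1.42 above the next array, wild type A. The difference of -0.73 (SE 0.43) was -0.18 without wild type C and -1.12 without wild type B, and against wild type B alone it was 0.042. Slc4a4, the basolateral sodium-bicarbonate cotransporter that feeds bicarbonate secretion, read 9.22, 9.12 and 9.30 against 8.85, 9.30 and 8.78. Here wild type A and C were low and wild type B lay just under the highest array labelled knockout, with a difference of 0.24 (SE 0.18). Its 4 probe sets above the filter gave 3 positive differences and 1 negative, and against wild type B alone the sign turned, to -0.081. Slc4a8, a sodium-driven chloride-bicarbonate exchanger, stood at -0.09 (SE 0.29) and Slc4a11 at -0.002 (SE 0.195).

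The cation-chloride cotransporter Slc12a2, which loads chloride for secretion, had the largest positive difference. It read 12.54, 12.22 and 12.36 in the arrays labelled knockout and 12.00, 12.36 and 10.78 in wild type. Wild type C was far below the rest, wild type A a little below, and wild type B lay inside the other group. The difference was 0.66 (SE 0.35), or 1.58-fold with an interval from -0.15 to 1.47 in log2 terms. All 3 probe sets went this way, from 0.66 to 0.78. The difference was 0.19 without wild type C and 0.98 without wild type B, and against wild type B alone 0.015. Slc12a7, a potassium-chloride cotransporter, read 9.14, 9.44 and 9.70 against 9.42, 8.88 and 10.20, so that wild type held both the lowest and the highest array (difference -0.07, SE 0.32). Its sign turned on the signals as deposited and with arrays centred on their medians (0.036 in both, relative to the median of all genes). Slc12a4, a related cotransporter, ranged from 4.24 in the array labelled knockout C to 5.96 in wild type A (difference -0.46, SE 0.39). Leaving out 1 array at a time gave -0.78 to -0.07, the latter without the array labelled knockout C. Slc12a8 stood at -0.18 (SE 0.22), but at 0.36 on its dimmer probe set above the filter, and Slc12a9 at 0.13 (SE 0.26).

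The epithelial sodium channel is built from alpha, beta and gamma subunits, encoded by Scnn1a, Scnn1b and Scnn1g, and aldosterone controls it in the distal colon. Their differences did not share a sign. Scnn1a read 7.89, 8.29 and 8.22 in the arrays labelled knockout and 8.49, 8.02 and 8.83 in wild type, a difference of -0.31 (SE 0.24). Scnn1b read 6.36, 6.10 and 5.93 against 6.76, 6.21 and 6.58, a difference of -0.39 (SE 0.22). In both, wild type A and C were above every array labelled knockout, and wild type B was not. Scnn1g read 6.13, 6.33 and 4.94 against 5.97, 5.41 and 4.42, a difference of 0.53 (SE 0.47), and array C was the lowest in each group. Leaving out 1 array at a time gave 0.11 (without wild type C) to 0.96 (without the array labelled knockout C). Against wild type B alone the 3 subunits stood at 0.11, -0.08 and 0.39.

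Atp1b1, the main beta subunit of the sodium pump, varied least of all members. It read 13.59, 13.66 and 13.69 in the arrays labelled knockout and 13.64, 13.56 and 13.52 in wild type. All 6 arrays lay within 0.17, and the difference of 0.08 (SE 0.09) had an interval of -0.12 to 0.27, whose farther end is 1.21-fold. Relative to the median of all genes it was -0.23 on the signals as deposited and with arrays centred on their medians. Its sign thus depends on the scaling and on the zero point, as that median was itself 0.43 as deposited. Atp1b3, another beta subunit, read 9.61, 9.35 and 9.20 against 9.39, 9.86 and 9.10 (difference -0.06, SE 0.22), with wild type at both ends. That sign turned to 0.026 under the same scalings. Atp1b2 stood at -0.02 (SE 0.28). Atp12a, the colonic proton-potassium pump, read 11.16, 12.41 and 12.21 against 12.50, 12.16 and 12.45. The array labelled knockout A was 0.998 below the next array, and B and C of that group lay inside the wild-type range (difference -0.44, SE 0.30, with -0.06 without the array labelled knockout A and -0.69 without B).

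Fxyd4, also called corticosteroid hormone-induced factor, regulates the sodium pump in colon and kidney and had the largest difference of all members. It read 8.26, 8.70 and 6.78 in the arrays labelled knockout and 9.06, 9.01 and 8.44 in wild type. The array labelled knockout C lay 1.49 below the next, and the array labelled knockout B lay above wild type C, so the groups overlapped. The mean was 7.91 ± 1.01 (SD, n = 3) against 8.84 ± 0.35 (SD, n = 3), a difference of -0.92 (SE 0.46), 1.90-fold lower. Its interval ran from -1.97 to 0.12 and thus includes both no difference and a 3.92-fold one. The exact two-sided permutation p was 0.2, where 3 against 3 arrays can give 0.1 at the least. Fxyd4 stood at -1.10 against wild type B, which is a single array, and at -1.004 in the fit that included Gapdh. Because the Gapdh ratio was higher in every wild-type array, that fit cannot fully separate it from the label. Whether RNA quality has a part in the Fxyd4 difference was not tested. Without the array labelled knockout B, or without wild type C, the Fxyd4 groups no longer overlapped. The Fxyd4 difference was -1.32 without the array labelled knockout B and -0.36 without C of that group. Fxyd3, a sodium pump regulator of epithelia, read 10.90, 10.72 and 10.49 against 10.70, 11.06 and 10.12 (difference 0.08, SE 0.24). Fxyd5, whose product also modulates cell adhesion, ranged from 5.88 in wild type B to 7.69 in wild type C (difference -0.52, SE 0.44, with -0.08 without wild type C and -0.99 without wild type B).

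Of the potassium channel genes, Kcne3 encodes the small subunit that makes the Kcnq1 channel conduct during chloride secretion, and Kcnn4 encodes the calcium-activated channel. Kcne3 read 11.12, 11.17 and 10.84 in the arrays labelled knockout and 10.55, 11.30 and 9.72 in wild type, a difference of 0.52 (SE 0.35). Kcnn4 read 10.10, 10.03 and 9.88 against 9.79, 10.04 and 9.25, a difference of 0.31 (SE 0.21). In both genes wild type C was the lowest array and wild type A the next, as for Slc12a2, while wild type B lay inside or above the other group. On the dimmer Kcnn4 probe set (difference 0.57) the groups did not overlap (exact two-sided permutation p 0.1, which is as low as this design goes). This was 1 of the members' 50 probe sets above the filter, where the share over all probe sets above it was 8.74%. Kcnq1 read 8.22, 7.97 and 7.64 against 7.88, 8.13 and 8.06 (difference -0.08, SE 0.20) and did not follow this order.

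**Figure D2:**
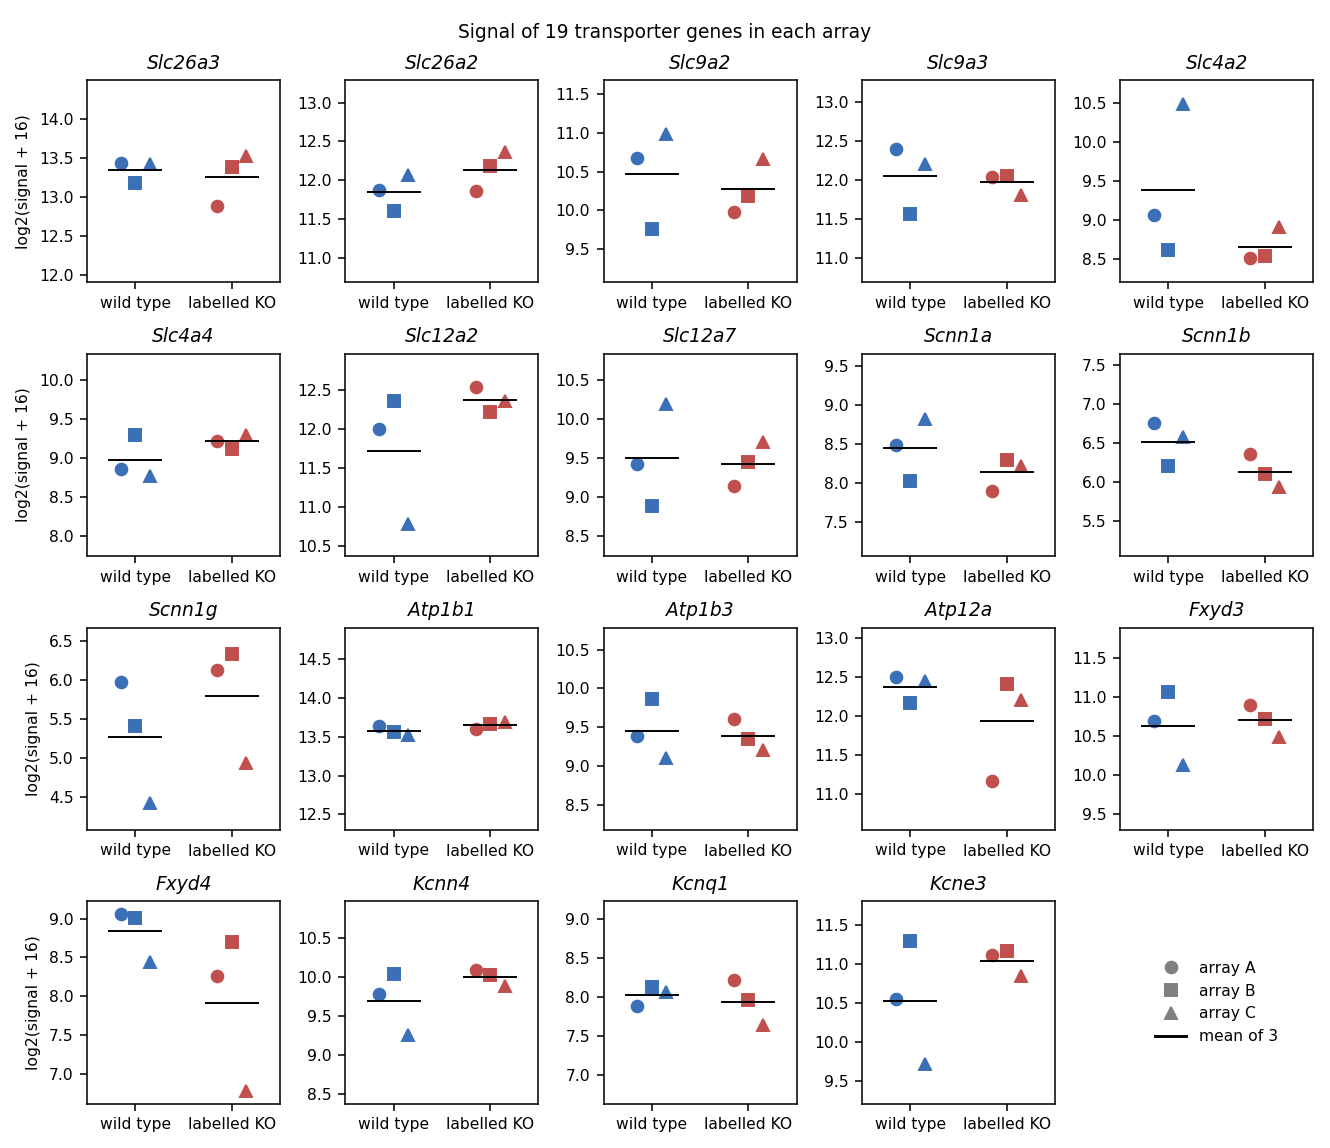
log2(signal + 16) of 19 members in each array (vertical axis, of the same height in every panel but not the same level), wild type in blue and arrays labelled knockout in red, with the letter as the symbol and the mean of 3 as a line. The groups overlap in every panel; wild type C stands off in Slc4a2, Slc12a2 and Kcne3, and the array labelled knockout C in Fxyd4.

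The promoters of Kcnn4 and Kcne3, which share a low signal in wild type A and C, are shown so that they can be compared; that of Slc12a2 is not shown. Each run is the 250 bases before an annotated start, 5' to 3', from RefSeq on GRCm38.p6. Both genes lie on the plus strand of chromosome 7, and Kcne3 has 2 starts in the table. Capitals mark matches, on either strand, to TGANTCA (the AP-1 motif), TGACGTCA (the cyclic AMP response element, which the p38 target Atf2 can bind) or GGGCGG (the GC box). No window holds matches to more than 1 of these motifs.
Kcnn4, chr7:24370013-24370262: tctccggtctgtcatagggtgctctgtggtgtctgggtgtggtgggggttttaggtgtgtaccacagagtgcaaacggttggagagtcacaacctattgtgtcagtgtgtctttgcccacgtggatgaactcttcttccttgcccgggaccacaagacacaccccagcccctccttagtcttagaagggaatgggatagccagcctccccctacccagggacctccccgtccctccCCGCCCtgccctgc
Kcne3, first start, chr7:100176420-100176669: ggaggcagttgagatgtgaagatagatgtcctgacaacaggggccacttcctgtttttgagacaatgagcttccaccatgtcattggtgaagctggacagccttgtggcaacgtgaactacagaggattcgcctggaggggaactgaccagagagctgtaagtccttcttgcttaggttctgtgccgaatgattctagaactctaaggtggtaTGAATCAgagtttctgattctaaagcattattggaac
Kcne3, second start, chr7:100178433-100178682: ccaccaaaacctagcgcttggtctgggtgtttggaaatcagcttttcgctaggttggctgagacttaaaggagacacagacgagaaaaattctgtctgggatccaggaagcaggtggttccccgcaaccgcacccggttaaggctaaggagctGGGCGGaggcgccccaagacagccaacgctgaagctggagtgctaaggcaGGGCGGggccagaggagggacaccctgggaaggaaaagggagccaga
A single TGANTCA match lay before the first Kcne3 start. It has A in the middle, where the usual AP-1 motif has C or G, so it is not a match to that stricter form. GC boxes lay before the other starts, and these windows hold no cyclic AMP response element. Of the 30 tested members 22 had 29 such windows in the table. The loose pattern TGANTCA was in 2 of the 29 (6.90%), before Kcne3 and Slc9a9, against 6.75% of all 32851 windows. The cyclic AMP response element was in 0 of 29, against 1.55% of all windows, and the GC box in 15 of 29 (51.7%, in 14 members), against 32.7%. A match is a description of letters and not of binding.

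In 28 of 30 members the difference between the labels was smaller than the range of the 3 wild-type arrays. How many of all genes share this was not computed, so the count is no result about the members. Wild type C was the highest or the lowest array in 21 of 30 members (70%), where this was so for 63.1% of all genes tested. It was the highest in 10, among them Slc4a2, Slc9a2, Slc12a7 and Scnn1a, and the lowest in 11, among them Slc12a2, Kcne3, Kcnn4 and Scnn1g. Wild type B was the lowest in 9 (14.5% of all genes), among them Slc9a2, Slc9a3, Slc26a2 and Slc12a7. Wild type A was the highest in 8 (9.94% of all genes) and the lowest in 0 (14.5% of all genes). The array labelled knockout B was an extreme least often, in 3 of 30 (20.3% of all genes, also the lowest share among the arrays).

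**Figure D3:**
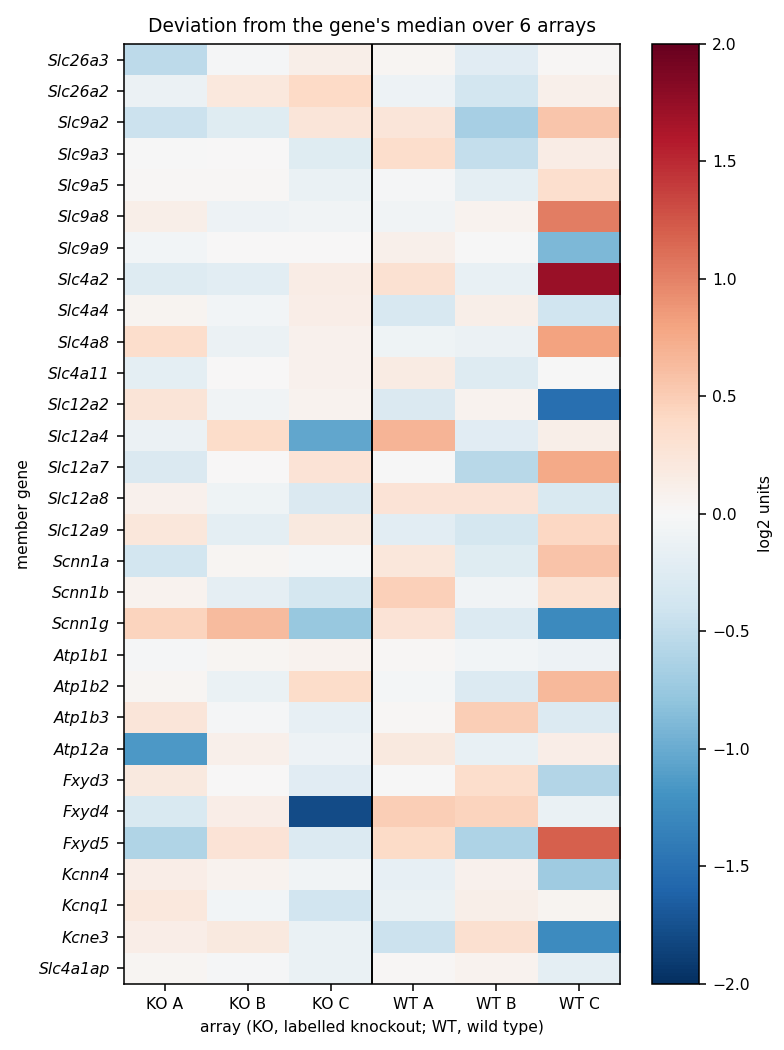
Deviation of each array (columns) from the gene's own median over the 6 arrays, in log2 units (colour; red above, blue below), for the 30 tested members (rows). Wild type C holds the strongest red, in Slc4a2, and a strong blue in Slc12a2; the array labelled knockout C is bluest in Fxyd4.

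Set against wild type B alone, the mean of the arrays labelled knockout gave 16 of 30 members a sign other than that of the full comparison. A fit with Gapdh 3' over 5' as covariate did so for 18 of 30, although this ratio was higher in every wild-type array and cannot be fully told apart from the label. The shares of all genes that turned in these settings were not computed, so the counts are not read as particular to the members. In 19 of 30 the sign differed between wild type B on the one side and wild type A and C on the other, where this was so for 57.2% of all genes tested. Slc4a2 stood at -1.12 against wild type A and C and at 0.042 against wild type B. For Slc12a2 these values were 0.98 and 0.015, for Kcne3 0.91 and -0.25, for Fxyd5 -0.99 and 0.41 and for Slc9a2 -0.55 and 0.51. Fxyd4 (-0.84 and -1.10), Slc26a2 (0.16 and 0.53), Scnn1g (0.61 and 0.39) and Atp12a (-0.55 and -0.23) kept their sign. With wild type B left out, 10 of 30 members had an unadjusted p under 0.05 in limma, against 17.2% of all genes in that setting, and 11 of 30 did not overlap between the groups, against 36.8% of all genes. The 10 were Slc12a2, Kcne3, Kcnn4 and Slc4a4 on the higher side and Slc4a2, Slc9a2, Slc9a3, Scnn1a, Scnn1b and Fxyd5 on the lower. None of them passed an adjusted p of 0.05 (lowest 0.201).

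**Figure D4:**
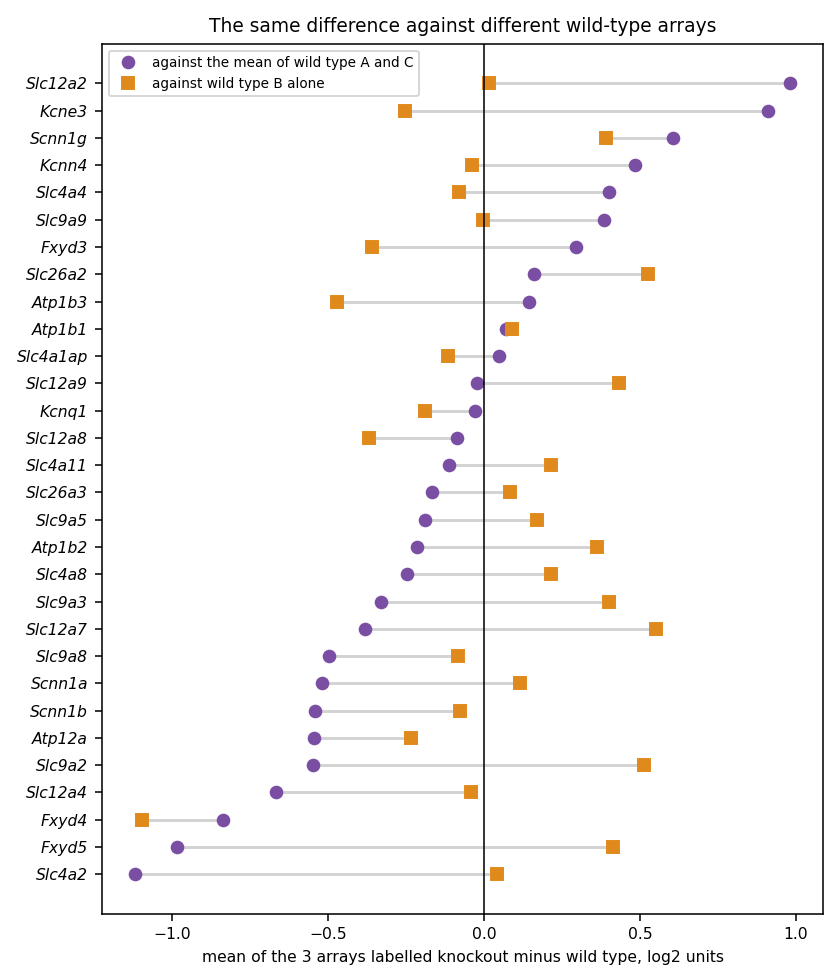
Mean of the 3 arrays labelled knockout minus the mean of wild type A and C (circles) and minus wild type B alone (squares), in log2 units, for the 30 tested members in the order of the circles. For 19 of 30 the pair lies on opposite sides of 0, with the longest gaps in Fxyd5, Kcne3 and Slc4a2.

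The other 24 members lay below the filter, a log2 value of 5.10 where the bottom of the scale is 4, and were not tested. They were Slc26a1, Slc26a4, Slc26a5, Slc26a6, Slc26a7, Slc26a8, Slc26a10 and Slc26a11 of the anion exchangers, Slc9a4 and Slc9a7 of the sodium-hydrogen exchangers, Slc4a1, Slc4a3, Slc4a5, Slc4a9 and Slc4a10 of the bicarbonate transporters, and Slc12a1, Slc12a3 and Slc12a5 of the cotransporters. Atp1a4, Atp1b4, Fxyd1, Fxyd2, Fxyd6 and Fxyd7 completed them. Their brightest probe sets had mean values of 4.12 to 5.10, and the nearest tested member, Slc12a4, had 5.24. Slc12a1 and Slc12a3 are cotransporters of the kidney, and Slc4a1 is the anion exchanger of red blood cells. The groups did not overlap in 1 of the 24, against 9.87% of all genes below the filter. This was Slc4a9, with 4.72, 4.57 and 4.13 in the arrays labelled knockout and 5.21, 5.25 and 5.72 in wild type (exact permutation p 0.1). Slc4a1ap, which is no transporter, stood at -0.01 (SE 0.18).

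Genes that regulate these transporters gave no call either. Of a list of 54 channels, kinases, proteases, hormones and scaffolds 49 were tested, 19 higher and 30 lower, with a median of -0.10, and 0 passed in limma. An unadjusted p under 0.05 was reached by 3 (6.12%, against 3.94% of all genes), and in 4 the groups did not overlap (8.16%, against 9.06% of all genes). Cftr, the apical chloride channel of secretion, read 10.23, 9.99 and 10.28 in the arrays labelled knockout and 9.30, 10.06 and 9.22 in wild type, a difference of 0.64 (SE 0.24, limma adjusted p = 0.902). As in Slc12a2, Kcne3 and Kcnn4, wild type A and C were the lowest arrays, while wild type B lay inside the other group (above it in Kcne3); these genes were set side by side after their values were seen. Against wild type B alone the Cftr difference was 0.11. Guca2a, which encodes guanylin, a peptide that raises fluid secretion, read 12.56, 12.59 and 12.74 against 13.13, 12.85 and 12.98 (difference -0.35, SE 0.11, limma adjusted p = 0.902), with no overlap; it stood at -0.42 against wild type A and C and -0.22 against B. St14, which encodes the membrane protease matriptase, read 10.59, 10.91 and 10.92 against 11.52, 10.81 and 11.95 (difference -0.62, SE 0.27), and stood at -0.005 against wild type B alone. Prss8, a protease that activates the sodium channel, and Tsc22d3, a corticosteroid-induced gene, also did not overlap, at -0.49 (SE 0.21) and -0.44 (SE 0.20), and neither did Hsd11b2, the enzyme that keeps glucocorticoids off the aldosterone receptor, at 0.24 (SE 0.15). Against wild type A and C and against B, in that order, Prss8 stood at -0.64 and -0.17, Tsc22d3 at -0.55 and -0.22, and Hsd11b2 at 0.26 and 0.20. These 3 were chosen after their values were seen. Sgk1, which encodes a glucocorticoid-regulated kinase, went the other way from Tsc22d3, at 0.66 (SE 0.36), with overlapping groups. That was the largest positive difference of the list.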

How the data were processed

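Each array has a single linear intensity value for every probe set in the deposited table. The authors computed it with MAS5, per the submitters' processing notes. Its version, target and scaling were not given in the sources used here. A pseudocount of 16 was added, log2 was taken, and arrays were quantile normalized over all probe sets because their trimmed means (2% off each end) differed, which removes any overall difference between arrays. Dropped were 64 control probe sets and those whose mean lay below the 40th percentile, a signal of about 18.4. Of the platform symbols 0 changed when updated. limma 3.58.1 (R 4.3.3) fitted the groups by lmFit and eBayes, with a trend in the variance, on 4 residual and 4.19 prior degrees of freedom. p-values were adjusted by Benjamini-Hochberg over all 12437 genes, with a threshold of 0.05. Intervals are limma's at 95%. The steps were tested on simulated data. Array weights were estimated over all probe sets, because the estimation over the genes tested did not converge.

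Members and lists were chosen with earlier results of these data known. Members were named with values in every array where they have a main role in colonic transport (24 genes, 19 of them tested), had an unadjusted p under 0.05 or were 2-fold apart. Slc9a8, Slc9a9, Slc12a4, Fxyd5 and Slc4a9 were chosen for fuller description after their values were seen. Regulators were named at an unadjusted p under 0.05. The alternatives are given in the closing section. Marker lists were summed over their tested genes as signals on the normalized scale, given as log2(sum + 16).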

Additional observations from a re-analysis of the deposited data

How the results depend on the processing

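Under 19 other settings limma called 0 of the members in every one. The count of members with an unadjusted p under 0.05, beside the share of all genes in that setting, was 2 as deposited (17.1%), 1 with arrays centred on their medians (3.84%), 1 with no filter (4.49%), 4 with array weights (19.1%) and 2 against wild type B alone (2.999%). It was 0 to 10 when each array was left out in turn (10 without wild type B, 17.2%). The letter as a replicate block gave 4 (Fxyd4, Kcne3, Slc12a2 and Slc4a2; 5.56% of all genes) and called 0 members. Same-letter arrays did not deviate together in every pair (r over genes -0.04, -0.11 and 0.45 for A, B and C). With 3 arrays in each group this cannot settle whether the letters pair the samples, and the labels do not say. The count of members without overlap was 5 as deposited (24.9% of all genes), 1 centred (9.64%), 1 with no filter (9.32%), 16 against wild type B alone (48.6%), and 1 to 11 with each array left out in turn (13.9% to 36.8%; 11 without wild type B). The median difference was 0.028 against wild type B alone, where the lone array was assumed to vary like the others, and -0.14 to -0.02 with each array left out.

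As deposited, the median of all genes moved to 0.43, and centred to 0.20; relative to it 19 of 30 members were lower, and Slc12a7 (0.036), Atp1b1 (-0.23) and Atp1b3 (0.026) turned in both. The signs below are those of the genes named by rule. With the mean of probe sets Slc26a3 (0.015) and Slc12a7 (0.042) turned, and with array weights Kcnq1 (0.039); over all 30 members 3 and 4 turned. Against wild type B alone Slc26a3 (0.084), Slc9a2 (0.51), Slc9a3 (0.40), Slc4a2 (0.042), Slc4a4 (-0.081), Slc12a7 (0.55), Scnn1a (0.11), Fxyd3 (-0.36), Kcnn4 (-0.038) and Kcne3 (-0.25) turned. With the Gapdh ratio as a covariate Slc26a3 (0.0087), Slc9a2 (0.37), Slc9a3 (0.22), Slc4a2 (0.36), Slc4a4 (-0.054), Slc12a2 (-0.33), Slc12a7 (0.66), Scnn1a (0.15), Fxyd3 (-0.44), Kcnn4 (-0.14) and Kcne3 (-0.33) turned. With each array left out in turn, Atp1b3 ranged from -0.24 to 0.14, Fxyd3 from -0.18 to 0.29, Kcnq1 from -0.22 to 0.072, Slc12a7 from -0.38 to 0.28, Slc26a3 from -0.21 to 0.11, Slc9a2 from -0.55 to 0.060 and Slc9a3 from -0.33 to 0.085. Of 436 values of 23 single genes under these settings 396 kept their direction and 40 turned. Some could not turn, as the setting leaves the difference of a tested gene as it is. These settings were no filter, a filter at the 60th percentile, no trend, a robust prior and the letter as a block. The 23 also hold Mapk14 and the regulators Cftr, Guca2a and St14, which were named for an unadjusted p under 0.05 in limma. The count is thus no measure of how stable the signs are. The cause of the turns was not tested.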
